A study of Homo sapiens with 3 samples.

Results

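In untreated H9 cells, 9 histone variant genes were followed, chosen by name from the histone genes whose messenger RNA is known to be polyadenylated, unlike that of the replication-dependent histone genes. They were H2AZ1, H2AZ2, H2AX, MACROH2A1 and MACROH2A2 of the H2A family, H3-3A, H3-3B and CENPA of the H3 family, and the linker histone gene H1-10. All 9 were found among the 58051 gene identifiers in the count files, of which 19629 were protein-coding genes of the annotation used here. H9 is an established line of human embryonic stem cells. The samples were 3 replicates of total RNA of wild-type genotype, given no treatment, grown in Essential 8 Flex medium on Vitronectin and sequenced after removal of ribosomal RNA, so there was 1 condition and no contrast between conditions. The study asked how transcription levels relate to DNA breaks and replication origins, and used these libraries to sort genes by expression.

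The libraries held 10390984, 12024802 and 8655155 counted reads in replicates 1, 2 and 3. Nothing in the labels says that they came from separate cultures, so the spread between them may be technical. The 6 stem cell markers examined (POU5F1, NANOG, SOX2, LIN28A, DNMT3B and TDGF1) lay between 275 and 2576 TPM, a measure of transcript abundance scaled by the length of the gene and by the total of the library. In a bulk sample such as this, fewer cells expressing a gene and less RNA per cell cannot be told apart.

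Most histone protein is made from the replication-dependent genes during S phase. Their messages have no introns and no poly(A) tail, and end in a conserved stem-loop. Variant genes are often, though not always, transcribed through the cell cycle, usually carry introns and are polyadenylated, and their proteins are placed in chromatin by dedicated chaperones. H2A.Z, encoded by H2AZ1 and H2AZ2, sits at promoters and enhancers and at replication origins. H2AX is phosphorylated on a serine near its end around DNA double-strand breaks. The macroH2A proteins carry a large globular domain and are found in repressed chromatin, including the inactive X chromosome. H3.3, encoded by both H3-3A and H3-3B, replaces H3 in transcribed genes and at telomeres. CENP-A, the product of CENPA, marks the centromere, and H1-10 encodes the linker histone H1.10.

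The first 60 coding bases of H3-3A and H3-3B are shown because reads from these genes must be told apart to give each a level, although both encode the same protein. Sequences are from GENCODE release 44 on GRCh38 (hg38), 5′ to 3′ on the coding strand, and capitals mark the bases that differ between the pair.
H3-3A, chr1:226064352-226064411, plus strand: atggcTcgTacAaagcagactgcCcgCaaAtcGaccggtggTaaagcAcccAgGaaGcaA
H3-3B, chr17:75779115-75779174, minus strand: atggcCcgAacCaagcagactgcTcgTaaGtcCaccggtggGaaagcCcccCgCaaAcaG
There were 13 differences in this stretch. Over the whole coding sequence of 411 bases the pair differed at 88 bases in 79 codons, 77 of these at the last base of a codon, and all 136 translated residues were identical. The longest run shared at the same position was 14 bases.

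The same stretch of the H2A.Z pair is shown with the same marking. Here the 60 bases span an intron in each gene, so the coordinates cover 487 bases in H2AZ1 and 4674 bases in H2AZ2.
H2AZ1, chr4:99949684-99950170, minus strand: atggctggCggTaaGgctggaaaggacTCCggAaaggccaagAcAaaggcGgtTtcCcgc
H2AZ2, chr7:44843298-44847971, minus strand: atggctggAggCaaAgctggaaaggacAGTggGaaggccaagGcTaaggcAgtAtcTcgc
There were 12 differences in this stretch and 76 in the 387 coding bases, and 125 of 128 residues were identical. MACROH2A1 and MACROH2A2 were more distant, with 252 of 372 residues identical and 362 mismatches in 1119 coding bases. Among the H3 members, H3-3A shared 131 of 136 residues with the replication-dependent gene H3C1 but only 69 of 146 aligned positions with CENPA.

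The end of the H2AX coding sequence is shown with the codon of the phosphorylated serine in capitals, the fourth codon before the stop.
H2AX, chr11:119094963-119094992, minus strand: aaggccacccaggccTCCcaggagtactaa
H2AX also differed from the other members beyond the stop codon. The histone stem-loop was searched for in the 3′ UTR as GG, any 2 bases, CTTTT, any base, AG, any 2 bases and CC, in unbroken order on the transcribed strand. The pattern leaves the 2 middle pairs of the stem free, and 1 of them was freed only after the H2AX sequence had been seen. It was present in 80 of 20046 canonical protein-coding transcripts (0.399%), in 35 of 36 annotated replication-dependent H2A, H3 and H1 genes, and in 1 of the 9 members, H2AX. The motif is in capitals in the H2AX 3′ UTR and in that of H1-5, a replication-dependent linker gene.
H2AX, chr11:119094893-119094918, minus strand: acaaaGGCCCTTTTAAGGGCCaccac
H1-5, chr6:27866792-27866817, minus strand: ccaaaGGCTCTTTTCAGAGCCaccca
In H2AX the match began 49 bases after the stop codon, and 1024 bases of annotated transcript followed it.

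A poly(A) signal, searched for as AATAAA or ATTAAA in the last 60 bases of the transcript on the same strand, was present in 7 of 9 members, beside 15628 of 20046 canonical transcripts (78.0%) and 1 of the 36 replication-dependent genes. That replication-dependent gene, H2AC20, also had a stem-loop match. The poly(A) hexamers are shown in capitals for H2AX, the only member with matches to both signals, and for the 2 members with the most reads.
H2AX, chr11:119093888-119093903, minus strand: attttATTAAAggatt
H2AZ1, chr4:99948097-99948112, minus strand: agttcAATAAAggtca
H3-3A, chr1:226071987-226072002, plus strand: aatacATTAAActata
H2AX therefore had matches to both kinds of signal in its annotated 3′ UTR of 1089 bases. H2AZ2 and MACROH2A1 had no match in the window searched, which says only that these letters were not there. The canonical transcripts of H2AX and H1-10 were a single exon, whereas the other members had between 4 and 9 exons. Reads that end at the stem-loop and reads that end at the poly(A) signal were not separated in the gene counts.

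Messages of the 9 genes together took 0.209%, 0.218% and 0.217% of the counted reads in replicates 1 to 3. With genes below 0.01 TPM set aside as nonexpressed and the rest divided into 3 quantiles of mean TPM, 8 of the 9 members fell in the high class, above 27.0 TPM. This class held 28.8 percent of all protein-coding genes. The member median was 206 TPM, and the median of all protein-coding genes was 7.10 TPM. The members' median rank corresponded to the 96.7th percentile. Levels were computed per length of all annotated exons of a gene, and are given after each gene in replicates 1, 2 and 3 in that order.

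H2AZ1 (ENSG00000164032, chr4:99948086-99950355) had the highest level of the 9, at 954, 1022 and 926 TPM, from 5640, 7023 and 4663 reads. Its mean of 967 TPM ± 49.7 (SD, n = 3) put it at rank 92 of the 19629 protein-coding genes. The second H2A.Z gene, H2AZ2 (ENSG00000105968, chr7:44826791-44848087), was at 87.8, 92.0 and 87.4 TPM, with a mean of 89.1 ± 2.53 (SD, n = 3). The ranges of the pair were far apart.

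H2AX (ENSG00000188486, chr11:119093874-119095465) was at 239, 225 and 290 TPM, with a mean of 251 ± 34.4 (SD, n = 3). Replicate 3 was the high one of the 3. MACROH2A1 (ENSG00000113648, chr5:135334381-135399914) was at 40.8, 42.5 and 39.1 TPM, a mean of 40.8 ± 1.66 (SD, n = 3). MACROH2A2 (ENSG00000099284, chr10:70052544-70112282) was the lowest member and the only one in the medium class, at 22.3, 22.6 and 20.1 TPM, a mean of 21.7 ± 1.41 (SD, n = 3). The coefficients of variation were 4.07% for MACROH2A1 and 6.52% for MACROH2A2.

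H3-3A (ENSG00000163041, chr1:226061851-226072019) was the second highest member, at 538, 580 and 527 TPM and a mean of 548 ± 28.0 (SD, n = 3). H3-3B (ENSG00000132475, chr17:75776434-75785893) followed at 289, 282 and 298 TPM and a mean of 289 ± 8.13 (SD, n = 3), a coefficient of variation of 2.81% that was the smallest among the members. The 2 genes for one and the same protein thus lay next to each other in the order without overlapping.

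CENPA (ENSG00000115163, chr2:26764289-26801067) was at 38.2, 39.8 and 32.6 TPM, a mean of 36.9 ± 3.81 (SD, n = 3). It had the fewest reads of the 9, with 194, 235 and 141. Their exact 95% Poisson intervals, which cover counting error only, were 168 to 223, 206 to 267 and 119 to 166. The interval of replicate 3 lies below both other counts before library size is taken into account, and replicate 3 was the smallest library.

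H1-10 (ENSG00000184897, chr3:129314771-129316286) was at 175, 179 and 263 TPM, a mean of 206 ± 49.7 (SD, n = 3). Its coefficient of variation of 24.1% was the largest of the members, whose median was 5.14%, beside a median of 5.03% among genes of the high class. As with H2AX, replicate 3 was the high one.

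In descending order the means ran H2AZ1, H3-3A, H3-3B, H2AX, H1-10, H2AZ2, MACROH2A1, CENPA and MACROH2A2. Since both genes of a pair are measured in the same libraries, the order can be read within each library, and it was the same in all 3. Of the 8 pairs of neighbours, 5 did not overlap over the 3 libraries and 3 did. The overlapping neighbours were H3-3B with H2AX (1.15-fold between the means), H2AX with H1-10 (1.22-fold) and MACROH2A1 with CENPA (1.11-fold). The steps that did not overlap ranged from 1.70-fold, between CENPA and MACROH2A2, to 2.31-fold, between H1-10 and H2AZ2. Exact two-sided permutation tests of log2 TPM gave p = 0.1 for each of those 5 steps (adjusted p = 0.16 over the 8 pairs), which is the smallest p that 3 libraries against 3 allow in this test. An exact two-sided permutation of the signs of the 3 within-library differences, added after the data had been seen, gave p = 0.25 for all 8 steps, again the smallest it can give, so neither exact test could reach a p of 0.05. The within-library difference was 0.82 ± 0.00739 on the log2 scale for H2AZ1 over H3-3A and 1.13 ± 0.0278 for H2AZ2 over MACROH2A1 (SD, n = 3), many times its spread, and 0.21 ± 0.153 for H3-3B over H2AX. Leaving out replicate 3 made all 8 steps free of overlap.

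The order below H3-3B depended on which length was used. The exons of MACROH2A1 added up to 17013 bases and its canonical transcript to 1917 bases, a ratio of 8.87, and the ratio was 7.76 for MACROH2A2 and 1 for H2AX and H1-10. Per length of the canonical transcript, an alternative chosen after the data had been seen, MACROH2A1 was at 218, 227 and 211 TPM and took the fourth place. MACROH2A2 was then at 101 ± 6.22 TPM (SD, n = 3) and CENPA was lowest at 31.2 ± 3.11 TPM (SD, n = 3). On this scale all 9 members were in the high class, and H2AZ1 (1530 ± 74.3 TPM), H3-3A (1183 ± 57.5 TPM) and H3-3B (396 ± 12.6 TPM; SD, n = 3 for each) kept the first 3 places.

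**Figure D1:**
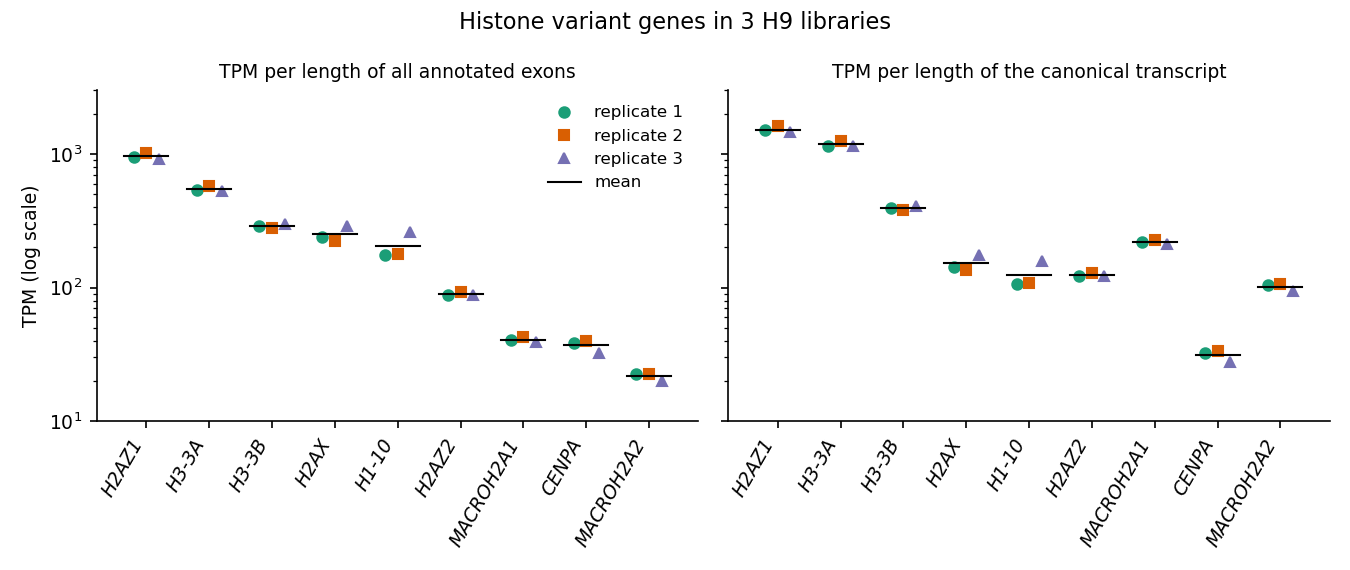
TPM (log axis) of the 9 genes in replicates 1 (circles), 2 (squares) and 3 (triangles), with the mean as a bar, per length of all annotated exons on the left and per length of the canonical transcript on the right. H2AZ1 is highest on both sides, with means of 967 and 1530 TPM, while MACROH2A1 moves from 40.8 to 218 TPM. Replicate 3 stands above the other libraries for H2AX and H1-10.

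Within each pair of related genes the direction was the same in all 3 libraries. On the log2 scale H2AZ1 exceeded H2AZ2 by 3.44, 3.47 and 3.41 in the 3 libraries, with a mean of 3.44 ± 0.0348 (SD, n = 3). The ratio of the means was 10.9-fold, and H2AZ1 made up 91.6% ± 0.186 (SD, n = 3) of the H2A.Z messages in TPM. In reads, without regard to length, the ratio was 3.52, 3.60 and 3.43, since the exons of H2AZ2 add up to 7003 bases and those of H2AZ1 to 2270.

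H3-3A exceeded H3-3B by 0.90, 1.04 and 0.82 on the log2 scale, a mean of 0.92 ± 0.111 (SD, n = 3), and made up 65.4% ± 1.74 (SD, n = 3) of the H3.3 messages in TPM. In reads the ratio came down to 1.16, 1.28 and 1.10. The direction was the same in all 3 libraries on either scale, but the size rested on the length used.

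MACROH2A1 exceeded MACROH2A2 by 0.87, 0.91 and 0.97 on the log2 scale, a mean of 0.91 ± 0.0490 (SD, n = 3). The ratio in reads was 2.07, 2.13 and 2.22. With the longest annotated transcript as the length of each gene the direction turned, to a mean log2 ratio of -0.41, so which macroH2A gene has more messages was not settled by these counts.

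Sequence shared with other loci limits some of these values. For every member, each window of 32 bases along its canonical transcript was looked up in the rest of the genome on both strands. H3-3A shared 95.9% of its windows and all of those in its coding sequence, and 14 other loci held at least 50 of them. The shares were 40.8% for H2AZ1, 24.3% for H3-3B, 23.1% for H2AZ2 and 3.65% for H2AX. MACROH2A1, MACROH2A2, CENPA and H1-10 shared none.

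How reads that fit several places were counted is not given in the sources used here. Annotated pseudogene copies of at least 200 bases and 90% identity numbered 13 for H3-3A, 2 for H2AZ1 and 1 for H2AZ2. The 13 copies of H3-3A held 12 reads in all, against 16543 on H3-3A itself (0.0725%). The copies with the most reads were H2AZP3 with 8, H3P14 with 3 and H3P16, H3P43 and H3P13 with 2 each, summed over the libraries. Few reads had thus been assigned to the copies, and whether reads of H3-3A were lost because they matched several loci was not tested.

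**Figure D2:**
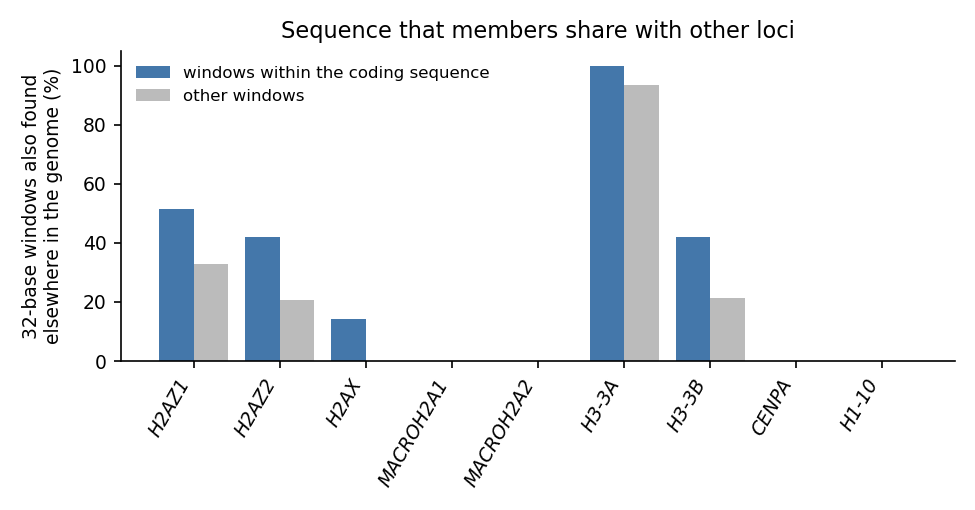
Share of 32-base windows (percent) of each canonical transcript that also occur elsewhere in the genome, for windows within the coding sequence (blue) and all others (grey). H3-3A reaches 100% in its coding sequence, and the macroH2A genes, CENPA and H1-10 have none.

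Exons of other genes overlap those of 7 members, and whether the counting used the strand of reads is not given, so reads in the shared bases are uncertain. The largest overlaps were the antisense genes PITX1-AS1, over 27.7% of the exon bases of MACROH2A1 (363, 441 and 310 reads counted on it), and H1-10-AS1, over 22.8% of those of H1-10 (338, 380 and 362 reads). H2AZ1-DT lay over 9.82% of H2AZ1, SLC35F6 on the same strand over 7.08% of CENPA, AIFM2 over 6.58% of MACROH2A2, UNK over 2.92% of H3-3B and H3-3A-DT over 1.25% of H3-3A. MIR4738 (1.42% of H3-3B) and ENSG00000270021 (0.976% of MACROH2A1) completed the list. H2AX and H2AZ2 had no overlap.

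Because the RNA was depleted of ribosomal RNA rather than selected for poly(A) tails, messages of the replication-dependent genes were measured in the same libraries. The 5 H2A members summed to 1370 ± 30.8 TPM and the 15 measured replication-dependent H2A genes to 7366 ± 603 TPM (SD, n = 3). The members thus made up 15.7%, 17.0% and 14.5% of this H2A total, a mean of 15.7% ± 1.25 (SD, n = 3). H2AZ1 alone was near H2AC11, at 978 ± 85.7 TPM (SD, n = 3), and below the highest gene of the family, H2AC8, at 2310 ± 157 TPM (SD, n = 3). H2AC11 was named after its value had been seen. Per length of the canonical transcript this order changed, with H2AZ1 at 1530 TPM above H2AC8 at 1394 ± 99.9 TPM and H2AC11 at 590 ± 54.2 TPM (SD, n = 3).

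Of the H3 total, H3-3A, H3-3B and CENPA made up 12.8%, 13.0% and 11.8%, a mean of 12.5% ± 0.621 (SD, n = 3). The members summed to 875 ± 23.7 TPM and the 11 measured replication-dependent H3 genes to 6119 ± 259 TPM (SD, n = 3), with H3C11 highest at 1391 ± 26.8 TPM. Per length of the canonical transcript H3C6 was the highest of these, at 884 ± 49.5 TPM, below H3-3A at 1183 TPM. No read was counted on 2 of the 11, H3C4 and H3C15, which allows up to 3 reads in a library. Many replication-dependent genes are near-identical in their coding sequence, so the split of reads among them is uncertain. H1-10 made up 1.57%, 1.71% and 2.21% of the H1 total, in which H1-5 alone was at 4334 ± 318 TPM (SD, n = 3).

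H2AC18, H2AC19, H3C2 and H3C3 had no matched row in the counts, so the H2A and H3 totals lack them and the member shares are upper values to that extent. These shares rested on length more than on the libraries. In reads without regard to length, the members made up 51.2% ± 2.72 of the H2A reads, 48.1% ± 1.35 of the H3 reads and 3.52% ± 0.641 of the H1 reads (SD, n = 3). Per length of the canonical transcript the shares were 30.4% for H2A and 23.7% for H3. The replication-dependent genes had the larger TPM sum in each family on either length.

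**Figure D3:**
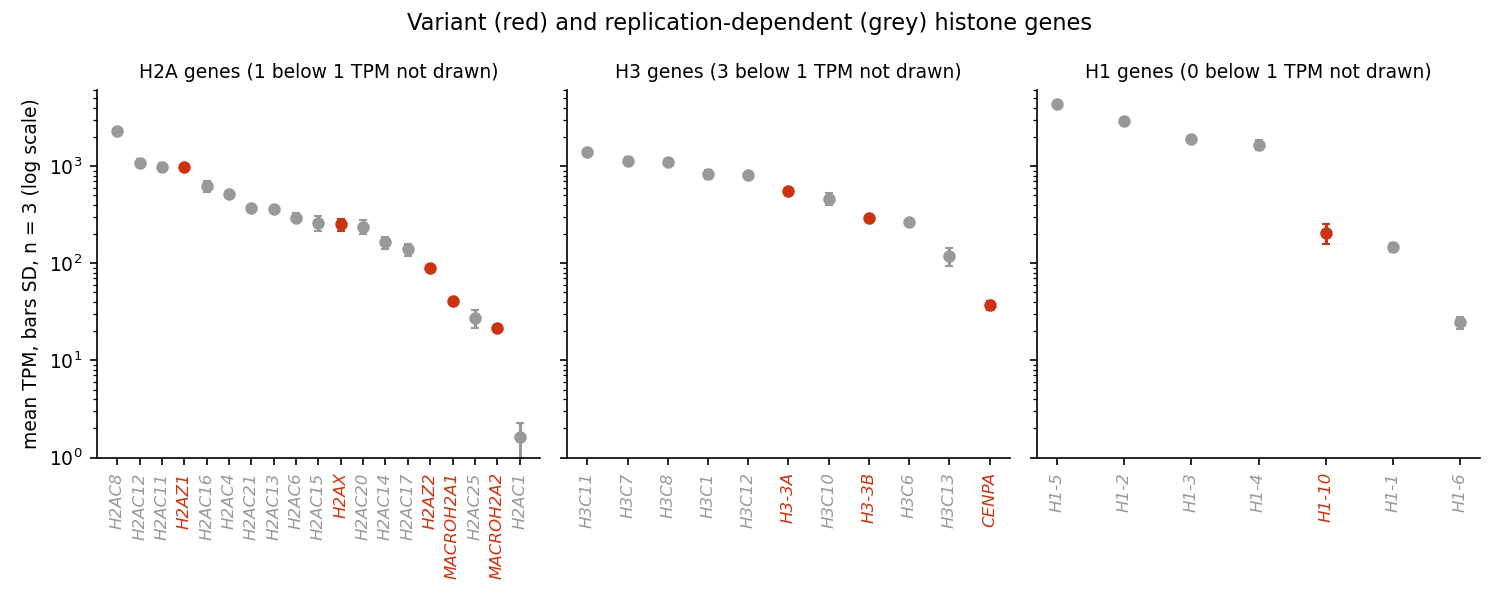
Mean TPM (log axis) with the SD over 3 replicates of the H2A, H3 and H1 genes, variants in red and replication-dependent genes in grey, per length of all annotated exons. On this length H2AZ1 at 967 TPM lies among the highest H2A genes, H3-3A at 548 TPM lies in the middle of the H3 genes, and H1-10 at 206 TPM lies below 4 of the 6 replication-dependent H1 genes.

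Whether a member differed between the libraries by more than counting error was tested with a chi-square test of its counts against the library totals, adjusted by Benjamini-Hochberg over 18451 genes with at least 20 reads. This compares the 3 libraries, not conditions. Of the 9 members, 5 differed, beside 10.9 percent of all tested genes and 21.7% of genes with at least 1000 reads. The test picks up smaller deviations in genes with more reads, so passing it does not rank genes by their spread. H2AZ2, MACROH2A1, MACROH2A2 and CENPA did not pass the test, with adjusted p of 0.603, 0.409, 0.347 and 0.517.

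H1-10 differed most, with replicate 3 at 1.52 times the mean of the other libraries (log2 ratio 0.60, chi-square adjusted p = 1.22e-19 over all genes). Its biological coefficient of variation from edgeR, 0.112, was at the 92.1th percentile of 15997 genes, whose median was 0.0676. H2AX came next, with replicate 3 at 1.28 times the others (log2 ratio 0.35, adjusted p = 2.49e-08). The deviations of H3-3A, H2AZ1 and H3-3B were smaller in size, in genes with 13897 to 17326 reads each (chi-square adjusted p = 0.00013, 0.000135 and 0.0170). In H3-3A and H2AZ1 replicate 2 was 1.08 times the others, and in H3-3B replicate 3 was 1.07 times the others. The edgeR coefficients of H3-3A, H2AZ1 and H3-3B were at the 23.4th, 23.6th and 16.3th percentiles, below those of most genes. That of H2AX was at the 64.4th percentile.

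H1-10 and H2AX were also the members with the highest exon GC content, 68.6% and 66.8%, while the other members lay between 41.6% and 49.4%. Over 299 genes with at least 100 reads and at least 65% GC, the median log2 ratio of replicate 3 to the others was 0.34 (quartiles 0.19 and 0.49), whereas over 5476 such genes with 40 to 50% GC it was -0.03. H2AX was thus near the median of genes of its base composition, and H1-10 was above their upper quartile. With counts corrected for GC content in 20 bins, the log2 ratio of replicate 3 was 0.03 for H2AX (chi-square adjusted p = 0.860) and 0.27 for H1-10 (adjusted p = 0.00131). The antisense gene H1-10-AS1, given above, had reads counted on it in all 3 libraries, and its part in the value of H1-10 was not tested.

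**Figure D4:**
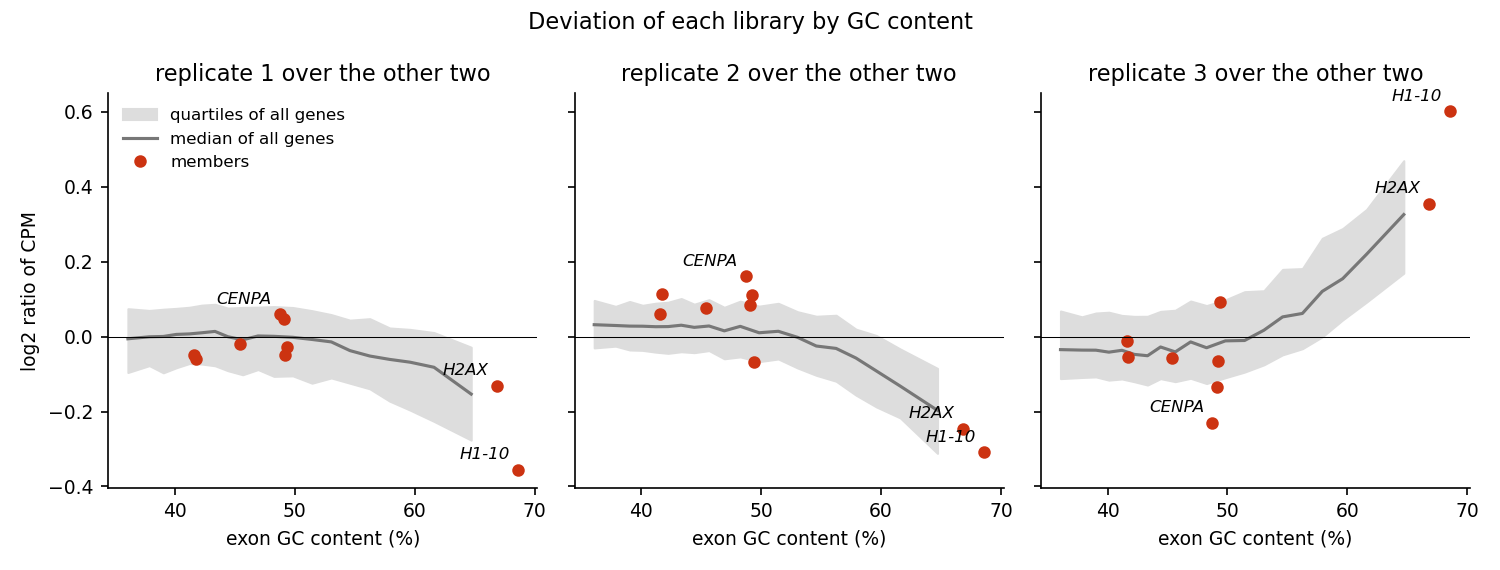
Log2 ratio of CPM (counts scaled by the library total) in each replicate to the mean of the other replicates, against exon GC content (percent). The line is the median and the band the quartiles of genes in 20 bins of GC content, and red points are the 9 members. In replicate 3 H2AX (0.35) lies near the line drawn by GC-rich genes and H1-10 (0.60) lies above the band.

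Genes that place, move or read these variants were measured from lists grouped by role. Of 29 genes for chaperones and remodelers, 23 were in the high class and 6 in the medium class, with a median of 73.9 TPM. Of all protein-coding genes 28.8 percent were in the high class, with a median of 7.10 TPM over all of them, and this share stands beside each count by role below. For H2A.Z, 9 of 13 genes were in the high class. The highest was ANP32E, a chaperone that removes H2A.Z from nucleosomes, at 412 ± 24.7 TPM (SD, n = 3), and the lowest was SRCAP, the ATPase of a complex that inserts it, at 3.46 ± 0.170 TPM (SD, n = 3). EP400, the ATPase of the other inserting complex, was at 37.3 ± 2.42 TPM (SD, n = 3) and was named after its value had been seen.

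For H3.3, 7 of 8 genes were in the high class. DAXX, which with ATRX places H3.3 at telomeres and repeats, was highest at 137 ± 13.2 TPM, and HIRA, of the complex that places it in transcribed genes, was lowest at 17.6 ± 0.865 TPM (SD, n = 3 for each). For CENP-A, 5 of 6 genes were in the high class. MIS18A, which primes the centromere for new CENP-A, was at 116 ± 3.39 TPM, and CENPC, which binds CENP-A nucleosomes, was at 13.8 ± 0.351 TPM (SD, n = 3 for each). Both subunits of FACT, the general H2A-H2B chaperone, were in the high class, SUPT16H at 299 ± 18.1 TPM and SSRP1 at 260 ± 12.7 TPM.

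Of 8 genes of H2AX signaling, 5 were in the high class, beside 28.8 percent of all protein-coding genes, and 3 in the medium class, with a median of 76.1 TPM. BAZ1B, a kinase that phosphorylates a tyrosine of H2AX, was highest at 154 ± 10.4 TPM (SD, n = 3). Per length of the canonical transcript PRKDC, the catalytic subunit of DNA-PK, was highest at 165 ± 13.0 TPM and BAZ1B was at 107 ± 6.86 TPM (SD, n = 3). ATR, which phosphorylates its serine at stalled forks, was lowest at 7.53 ± 0.605 TPM (SD, n = 3). H2AX itself, at 251 TPM, was above all 8 per length of all exons, but at 152 TPM it was below PRKDC per length of the canonical transcript.

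**Figure D5:**
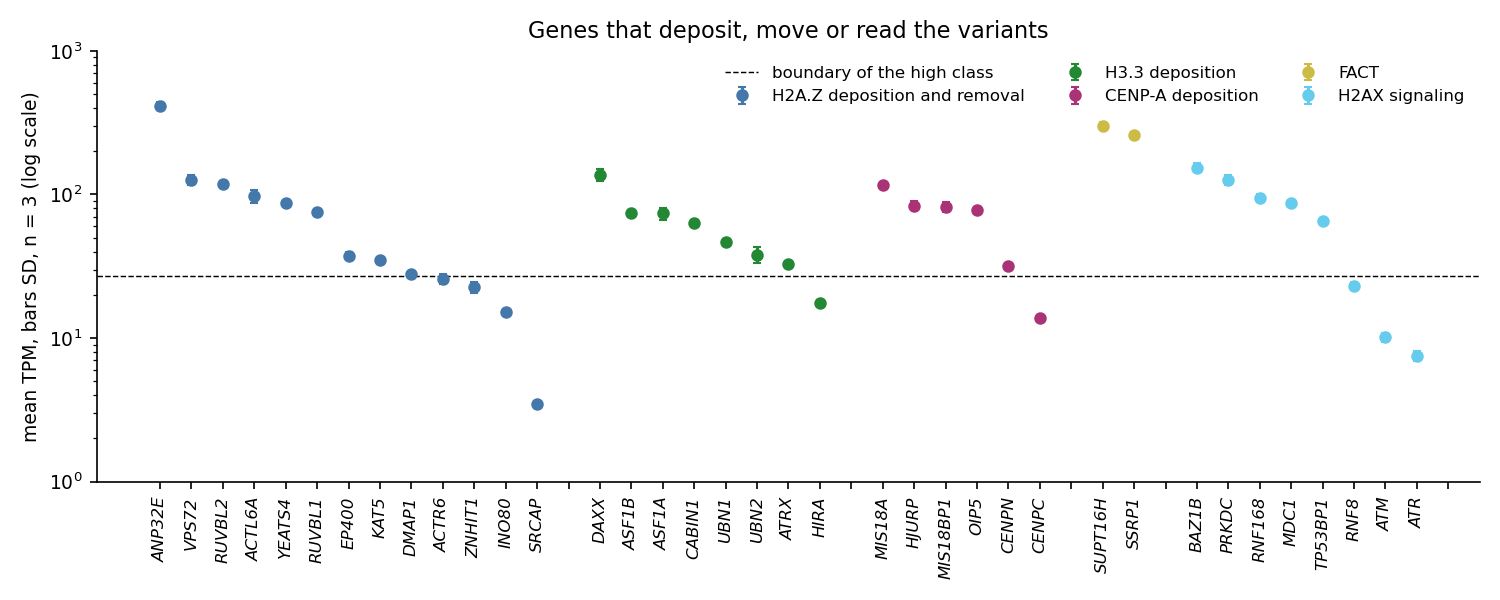
Mean TPM (log axis) with the SD over 3 replicates of 29 genes that deposit or remove the variants and 8 genes of H2AX signaling, by role, with the lower bound of the high class (27.0 TPM) as a dashed line. Levels are per length of all annotated exons, on which ANP32E at 412 TPM is highest and SRCAP at 3.46 TPM is lowest. Per length of the canonical transcript SSRP1 (352 TPM) and SUPT16H (281 TPM) are above ANP32E (263 TPM), and SRCAP (2.47 TPM) is still lowest.

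The protein-coding genes nearest to H2AZ1, by Euclidean distance of log2 TPM over the 3 replicates, were TUBA1B, a tubulin, at a distance of 0.108 (971 ± 62.1 TPM), SET, a histone chaperone, at 0.132 (1007 ± 51.8 TPM), and EIF5A, a translation factor, at 0.147 (938 ± 41.3 TPM; SD, n = 3 for each). With 3 libraries of 1 condition this measures a similar level on the length of all exons and nothing more.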

How the data were processed

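Total RNA of 3 H9 replicates was sequenced after depletion of ribosomal RNA (RNeasy extraction, NEBNext Ultra II library kit). The authors trimmed the reads with Trim Galore 0.4.4, aligned them to GRCh38/hg38 with TopHat2 2.1.1 and deposited raw read counts per gene, without normalization, which are the only values used here. For the counting step, the tool, the gene models and the strand setting were not given in the sources used here. The transcript levels that the study computed with Cufflinks 2.2.1 were not used.

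From the 58051 identifiers, 56948 (98.1%) were matched to GENCODE release 44 on the same build. TPM was computed from the counts and the summed length of all annotated exons, and genes were classed as in the study's methods over 19629 protein-coding genes. Library totals of 8655155 to 12024802 reads set the precision, and intervals cover counting error only. Neighbours in the order of levels were compared by exact permutation, and libraries by a chi-square test of counts per gene with Benjamini-Hochberg adjustment, in Python 3.11.15 (scipy 1.17.1). Scaling factors for alternatives came from edgeR 4.0.16 and DESeq2 1.42.0 in R 4.3.3. Pseudogene copies were found with blastn 2.17.0. The chi-square and dispersion scripts were tested on simulated data. The alternatives were other gene lengths, CPM, other scalings, totals, thresholds and filters, a correction for GC content, pseudogene reads added, and each replicate left out.

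The text names the 9 members, the genes with the highest and lowest mean TPM of each role in the lists, the highest replication-dependent gene of each family, up to 5 pseudogene copies with the most reads, genes overlapping member exons and the 3 genes nearest to the highest member. The members and lists were chosen with earlier results of these data known.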

Additional observations from a re-analysis of the deposited data

How the results depend on the processing

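The choice of gene length moved these results most. With the longest annotated transcript the log2 ratio of MACROH2A1 to MACROH2A2 turned from 0.91 to -0.41, that of H2AZ1 to H2AZ2 was 2.83, and the member shares were 19.1% of H2A and 21.5% of H3 TPM. With CPM, which ignores length, the ratios were 1.82 for H2AZ1, 0.24 for H3-3A and 1.10 for MACROH2A1 over their partners, and the shares were 51.2%, 48.1% and 3.52% for H2A, H3 and H1. With the canonical transcript, chosen after the data had been seen, the ratios were 3.62, 1.58 and 1.11 and the shares 30.4% and 23.7% for H2A and H3. These changes follow from the lengths alone, since the counts were the same. TMM and DESeq2 factors and added pseudogene reads moved none of the 9 member levels by more than 1 SD. With 3 replicates, taking the median or leaving 1 out cannot move a mean by more than 1 SD whatever the data, so this measure does not test those settings. Without replicate 3, H1-10 was at 177 TPM and H2AX at 232 TPM, against 206 and 251 TPM with all 3. With protein-coding genes only in the total, 8 levels were higher by more than 1 SD (H2AZ1 at 1198 TPM), and with mitochondrial genes left out 3 were. The longest transcript and CPM each moved 8 levels and the canonical transcript 9. The high class held 7 to 9 members and 18 to 28 of 29 deposition genes under all settings. The lowest counts, 7 and 18, came with a threshold of 1 TPM, and the highest, 9 and 28, with all genes classified. Both settings change which genes are classed, and the share of all genes in the class under them is not given here. Read within libraries, all 8 steps of the order had the same direction in each. With 1 replicate left out, 5 to 8 neighbouring steps were free of overlap (8 without replicate 3). The members that differed between libraries then numbered 5 without replicate 1, beside 9.26% of all tested genes. They were 2 without replicate 2, H2AX and H1-10, beside 10.7%, and 2 without replicate 3, H2AZ1 and H3-3A, beside 1.33%. The cause of these changes was not tested. TMM library sizes, DESeq2 library sizes and the correction for GC content each gave 4 members, beside 11.3%, 12.2% and 6.64% of all tested genes. H3-3B was lost under both scalings and H2AX under the correction. No pairing of samples between groups was possible because all samples belong to 1 group, and the only pairing used was that of genes measured in the same library. Depth limits CENPA most, at 570 reads in all.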

Other observations

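Of 19 other histone variant genes, 17 were matched, and 12 of these had no read in any library. A count of 0 allows up to 3 reads in a library, counting error only. How reads that fit several places were counted is not given, and sequence shared with other loci was not looked up for these genes. A count of 0 may therefore also reflect reads that were not assigned. The genes without a read included H2AB1, H2AB2 and H2AB3, which are known from the testis, and the oocyte linker histone gene H1-8. H2AB2 and H2AB3 had the same exon length, 591 bases, and the same GC content, 62.4%. H2AJ was at 26.1 ± 2.55 TPM and H3-4 at 7.04 ± 2.57 TPM (SD, n = 3 for each), both in the medium class. H2BW1 had 2 reads, all in replicate 2, and H3-5 had 2 reads in all.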
